A study of Mus musculus with 6 samples.

Results

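NRF2, the transcription factor encoded by *Nfe2l2*, its regulators, and the antioxidant and detoxification enzymes around it were followed in mouse embryonic fibroblasts (MEFs). The set held 38 genes chosen by symbol from the 17092 genes of the deposited count table. All 38 were in the table, and all 38 passed the filter on low counts and were tested. The study sequenced RNA from MEFs of WT mice and of *Aff3ir-ORF2-/-* mice, with 3 libraries of each genotype. *Aff3ir-ORF2* is an open reading frame nested in the gene *Aff3*, and by the methods of the study it was disrupted in the whole animal by Cas9 and several guides injected into fertilized eggs, after which heterozygotes were intercrossed. Both genotypes were grown at passages 4 to 7 in DMEM with 10% FBS, and the labels name no treatment. The question was how the loss of *Aff3ir-ORF2* changed the transcriptome.

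In unstressed cells the adaptor KEAP1 hands NRF2 to a ubiquitin ligase and the protein is broken down quickly. Oxidants and electrophiles modify KEAP1, NRF2 then builds up in the nucleus, pairs with small MAF proteins and binds antioxidant response elements near genes for quinone reduction, glutathione and thioredoxin metabolism, NADPH supply, haem breakdown and iron storage. Because NRF2 is controlled mainly as a protein, its activity is usually read from its targets and not from its own mRNA. Several of the enzymes, among them superoxide dismutases, catalase and ferritin, are also controlled by other factors, and ferritin by iron.

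Antioxidant genes moved in opposite directions in *Aff3ir-ORF2-/-* MEFs. Haem oxygenase *Hmox1*, the ferritin heavy chain *Fth1*, the epoxide hydrolase *Ephx1*, the extracellular superoxide dismutase *Sod3* and the secreted glutathione peroxidase *Gpx3* rose, by 1.63-fold to 5.51-fold. The glutathione transferase *Gsta4*, the aldehyde dehydrogenase *Aldh3a1* and sulfiredoxin *Srxn1* fell, to 0.109 to 0.587 of the WT level. These 8 genes passed both thresholds of edgeR's quasi-likelihood test, an adjusted p (Benjamini-Hochberg, over all 13075 tested genes) under 0.05 and a change of at least 1.5-fold. The 5 higher genes were 13.2% of the set against 14.2% of all tested genes, and the 3 lower genes were 7.89% against 7.27%. The share of called members was close to that of all tested genes (21.1% and 21.4%).

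With the adjusted p alone, 23 members passed (60.5%, against 56.8% of all tested genes), of which 12 were higher (31.6%, against 29.3% of all tested genes) and 11 were lower (28.9%, against 27.5%). The libraries of the 2 genotypes did not overlap for 24 members, 12 higher and 12 lower, which is 63.2% against 66% of all tested genes. The median log2 fold change of the members was 0.0104, and that of all tested genes was 0.00563. The plot of fold changes by role shows that the direction differed between roles. All 5 members past the adjusted p among the peroxidases and dismutases were higher, and so were the 3 among haem and iron genes. All 3 past it in the thioredoxin system and both past it in glutathione synthesis and recycling were lower. Other roles were mixed, with 1 higher and 3 lower in NADPH supply and 1 and 1 among inducible detoxification enzymes. The wider lists described further below were mixed too. Other peroxiredoxin, thioredoxin, glutaredoxin and repair genes had 7 higher and 3 lower, and other glutathione transferases 5 and 3. The roles were assigned from textbook knowledge but with earlier results of these data known, and the split between them was not tested.

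**Figure D1:**
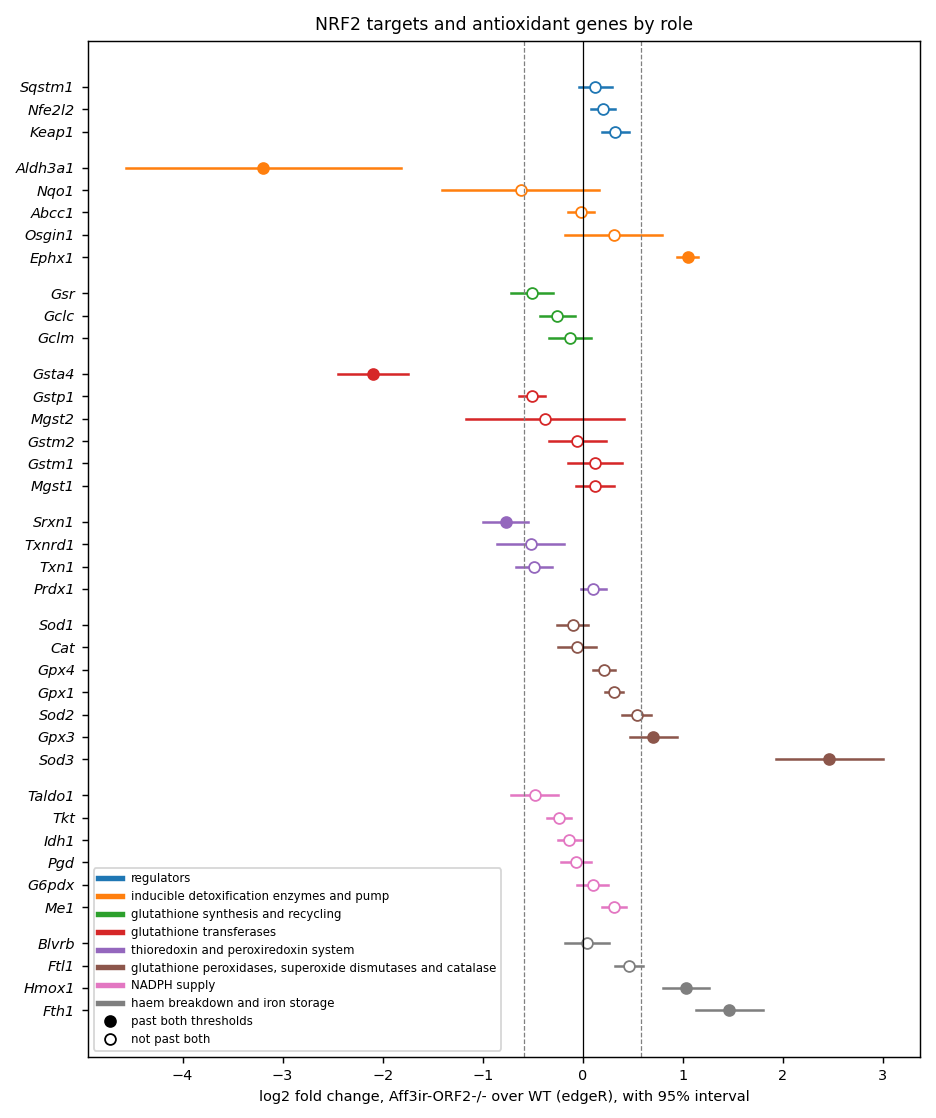
Log2 fold change of *Aff3ir-ORF2-/-* over WT (x axis, edgeR) for the 38 genes, grouped and coloured by role, with 95% intervals; filled circles passed both thresholds and dashed lines mark a 1.5-fold change. The values run from -3.19 for *Aldh3a1* to 2.46 for *Sod3*, with 19 genes above 0 and 19 below.

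Some properties of the libraries bear on every result. Total counts were 17435133 to 17726034 in WT and 18209421 to 18252330 in *Aff3ir-ORF2-/-* libraries. The biological coefficient of variation was 0.0184 among the WT and 0.0998 among the *Aff3ir-ORF2-/-* libraries, and nothing in the sources says that the libraries came from separate cultures or animals, so p-values measure only the spread between these samples. *Aff3ir-ORF2* itself was not analysed here. Its host gene *Aff3* had 406, 406 and 418 counts in the WT libraries and 229, 186 and 209 in *Aff3ir-ORF2-/-* libraries. Of 10 fibroblast markers, all were detected in both genotypes, with a summed level of 27948 to 28043 CPM (counts relative to the library total, after scaling by edgeR's TMM factors) in WT and 24295 to 30487 in *Aff3ir-ORF2-/-* libraries. Markers of another cell type moved with the genotype. Of 23 macrophage markers, 22 were tested and all 22 were higher, and the summed level of the list was 25.3 to 28.7 CPM in WT and 1464, 2025 and 2494 CPM in *Aff3ir-ORF2-/-* replicates 1, 2 and 3. Several, such as *Spi1* (3, 1 and 2 WT counts) and *Mrc1* (4, 4 and 3), were under 10 counts in every WT library. These passed the filter on low counts only through *Aff3ir-ORF2-/-* libraries, so their direction was largely fixed by the filter. Of the list, *C1qa*, *C1qb*, *Fcgr1* and *Aif1* were at 0 in all WT libraries, which allows up to 0.169 to 0.172 CPM in a library (3 counts, counting error only). *Aif1*, which was not tested, was also low in *Aff3ir-ORF2-/-* libraries (1, 3 and 5 counts). Other markers were present in WT, among them *Lyz2* (162, 199 and 182 counts) and *Cd68* (69, 69 and 54). In bulk RNA, more or fewer cells of a type and more or less RNA per cell cannot be told apart, and the part of these cells in the values below was not tested.

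Of the 3 regulators, 2 were higher at the adjusted p (29.3% of all tested genes were), by small amounts. Counts are given below in the order of replicates 1, 2 and 3. *Nfe2l2*, which encodes NRF2 (NCBI Gene 18024), had 2221, 2291 and 2291 counts in the WT libraries and 2541, 2979 and 2744 counts in *Aff3ir-ORF2-/-* libraries. All the latter lay above all WT libraries, with a log2 fold change of 0.20 ± 0.05 (SE, n = 3 per genotype) and an edgeR adjusted p of 0.00932. *Keap1*, which encodes the repressor of NRF2, had 765, 700 and 728 counts in the WT libraries and 960, 1019 and 925 in *Aff3ir-ORF2-/-* libraries. Its groups did not overlap either, and its log2 fold change was 0.33 ± 0.06 with an edgeR adjusted p of 0.00119. Both therefore passed the adjusted p and stayed under the 1.5-fold threshold. *Sqstm1*, the autophagy receptor p62 that can bind KEAP1, overlapped between genotypes with a log2 fold change of 0.12 (edgeR adjusted p = 0.170).

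Antioxidant response elements carry a core that can be written TGACNNNGC. Its letters were searched on both strands of RefSeq promoter windows (GRCm38.p6, 250 bases before to 50 after a start site). Of the 31 members with a window, 10 (32.3%) held a match, against 16.9% of 10425 tested genes with a window and 12.4% of all 32851 windows. Among members past the adjusted p, the core was in 2 of 7 lower genes and 2 of 10 higher genes. The higher genes are *Nfe2l2* and *Me1*, and the lower genes *Srxn1* and *Txnrd1*. *Gclm*, *Prdx1*, *Pgd*, *Mgst1*, *Sod1* and *G6pdx* held a match and did not pass the adjusted p. *Abcc1*, *Aldh3a1*, *Gclc*, *Gsr*, *Gsta4*, *Hmox1* and *Sod3* had no window. Sites of the first 4 genes and of *Gclm* and *Prdx1* are shown because they set the regulator, lower targets, a higher target and targets that did not pass the test side by side. Each is read 5′ to 3′ on the minus strand with the matched core in capitals.
Nfe2l2: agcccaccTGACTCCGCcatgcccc
Me1: tgccgccgTGACTCAGCgcttctcg
Srxn1: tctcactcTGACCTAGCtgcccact
Txnrd1: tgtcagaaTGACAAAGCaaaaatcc
Gclm: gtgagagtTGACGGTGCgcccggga
Prdx1: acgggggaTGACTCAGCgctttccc
These lie at chr2:75704887-75704911 for *Nfe2l2*, chr9:86695904-86695928 for *Me1*, chr2:152105544-152105568 for *Srxn1*, chr10:82859106-82859130 for *Txnrd1*, chr3:122245415-122245439 for *Gclm* and chr4:116685458-116685482 for *Prdx1*. The centre of the core stands 236, 2, 88, 130 and 129 bases before the start site of *Nfe2l2*, *Me1*, *Txnrd1*, *Gclm* and *Prdx1*, and 32 bases after that of *Srxn1*. The sites of *Me1* and *Prdx1* share the same core and also hold TGANTCA, the motif of the AP-1 family. A match is a string of letters and no measurement of binding was made.

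Inducible detoxification enzymes did not move together. *Nqo1*, the quinone reductase often used as the index target of NRF2, had 1171, 1198 and 1169 counts in the WT libraries and 863, 457 and 1102 in *Aff3ir-ORF2-/-* libraries. Every *Aff3ir-ORF2-/-* library lay below every WT library, replicate 3 barely and replicate 2 by far. The log2 fold change of -0.62 ± 0.31 did not pass the test (95% interval -1.40 to 0.16, edgeR adjusted p = 0.144). Without *Aff3ir-ORF2-/-* replicate 2 it was -0.34 and passed the adjusted p (0.0110, edgeR), and without replicate 3 it was -0.92 (0.0479). *Ephx1* (NCBI Gene 13849), the microsomal epoxide hydrolase, had 1338, 1375 and 1373 counts in the WT libraries and 2958, 3119 and 2839 in *Aff3ir-ORF2-/-* libraries. Its libraries were close within each genotype and far apart between them, at 78.1 ± 0.499 and 162 ± 6.39 CPM (SD, n = 3). The rise was 2.07-fold, with the lowest adjusted p of the members (log2 fold change 1.05 ± 0.05, edgeR adjusted p = 5.35e-07).

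*Aldh3a1* (NCBI Gene 11670), which oxidizes aldehydes from lipid peroxidation, had the lowest level of the members per transcript length. It had 22, 17 and 16 counts in the WT libraries and 1, 0 and 5 in *Aff3ir-ORF2-/-* libraries, without overlap. Its log2 fold change of -3.19 ± 0.61 rests on few counts, and the 95% interval ran from -4.57 to -1.82 (edgeR adjusted p = 0.00165). Without *Aff3ir-ORF2-/-* replicate 3 it was -4.96 and without replicate 2 it was -2.63, and the call held in both. The pump *Abcc1*, which exports glutathione conjugates, and *Osgin1*, an oxidative stress response gene, overlapped between genotypes at log2 fold changes of -0.02 and 0.31.

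Genes of glutathione synthesis and recycling were lower or did not pass the test. *Gclc*, the catalytic subunit of the ligase that makes the first step of glutathione synthesis, had 940, 911 and 988 counts in the WT libraries and 830, 754 and 925 in *Aff3ir-ORF2-/-* libraries. After scaling for library size the groups did not overlap (51.8 to 56.5 and 40.5 to 50.4 CPM), and *Gclc* fell by 0.26 ± 0.08 on the log2 scale (edgeR adjusted p = 0.0195), a call that was lost without WT replicate 1 (0.0591) or 3 (0.0781). *Gclm*, the modifier subunit, had 884, 959 and 957 counts in the WT libraries and 884, 791 and 1029 in *Aff3ir-ORF2-/-* libraries. These groups overlapped, and its log2 fold change was -0.13 ± 0.09 (95% interval -0.34 to 0.08, edgeR adjusted p = 0.265). Glutathione reductase *Gsr*, which restores reduced glutathione with NADPH, fell by 0.51 ± 0.09 (edgeR adjusted p = 0.00159), from 76.5 ± 2.67 to 53.8 ± 7.48 CPM.

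**Figure D2:**
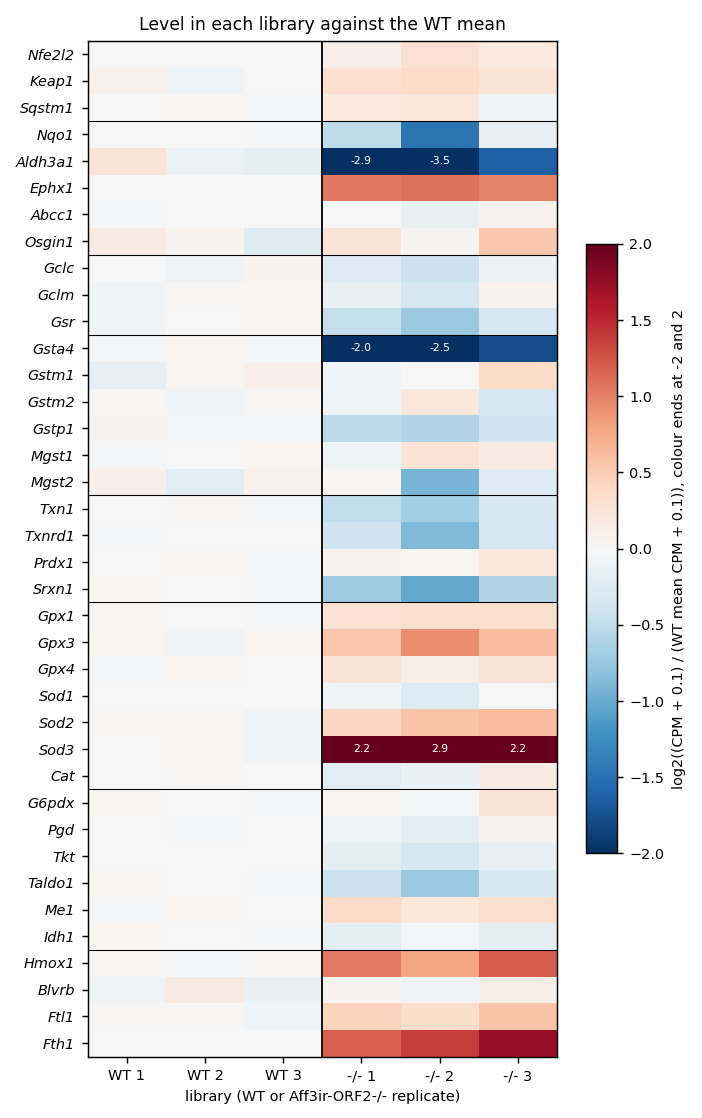
Level of each of the 38 genes in each library as log2 of the ratio to the WT mean (CPM + 0.1), ordered by role; red is higher and blue lower than WT, the colours end at -2 and 2 and values beyond are printed. The WT columns are nearly blank, and in the blue genes *Aff3ir-ORF2-/-* replicate 2 is mostly the darkest of the 3.

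The glutathione transferases, which couple glutathione to electrophiles, held 1 called member. *Gsta4* (NCBI Gene 14860), whose enzyme favours the lipid aldehyde hydroxynonenal, had 548, 583 and 551 counts in the WT libraries and 142, 101 and 172 in *Aff3ir-ORF2-/-* libraries. All *Aff3ir-ORF2-/-* libraries were far under WT, at 0.234 of its level (log2 fold change -2.09 ± 0.15, edgeR adjusted p = 1.50e-05). *Gstp1* fell by 0.51 ± 0.06 (edgeR adjusted p = 6.41e-05) and stayed under the 1.5-fold threshold. *Gstm1*, *Gstm2*, *Mgst1* and *Mgst2* overlapped between genotypes, at log2 fold changes of -0.38 to 0.12. *Gstp1* has a near-identical neighbour in *Gstp2* and the *Gstm* genes resemble each other, so their counts depend on how shared reads were assigned, which is not given in the sources used here.

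The thioredoxin system was lower at the adjusted p in 3 of 4 members, against 27.5% of all tested genes. *Srxn1* (NCBI Gene 76650), sulfiredoxin, which repairs overoxidized peroxiredoxins, had 3119, 3099 and 3013 counts in the WT libraries and 1956, 1621 and 2140 in *Aff3ir-ORF2-/-* libraries. The groups were well apart, and *Srxn1* fell to 0.587 of WT (log2 fold change -0.77 ± 0.10, edgeR adjusted p = 0.000348). *Txnrd1*, the cytosolic thioredoxin reductase, had 11418, 11871 and 11729 counts in the WT libraries and 9236, 6752 and 9731 in *Aff3ir-ORF2-/-* libraries. Replicate 2 stood apart at the low end, as it did for *Nqo1*, and *Txnrd1* fell by 0.52 ± 0.14 (edgeR adjusted p = 0.0181). Thioredoxin itself, *Txn1*, fell by 0.49 ± 0.08 (edgeR adjusted p = 7.68e-04). The peroxiredoxin *Prdx1*, which passes electrons from thioredoxin to hydrogen peroxide, overlapped at 0.11 (edgeR adjusted p = 0.125).

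Of the 7 enzymes that remove superoxide and peroxides, 5 were higher at the adjusted p (29.3% of all tested genes were), 2 of them past both thresholds. *Sod3* (NCBI Gene 20657), the secreted superoxide dismutase of the extracellular matrix, had 259, 267 and 251 counts in the WT libraries and 1261, 2012 and 1258 in *Aff3ir-ORF2-/-* libraries. Replicate 2 was the highest of the 3 here, and the rise was the largest of the members, at 5.51-fold (log2 fold change 2.46 ± 0.22, edgeR adjusted p = 2.34e-04). *Gpx3* (NCBI Gene 14778) had 267, 251 and 270 counts in the WT libraries and 400, 535 and 423 in *Aff3ir-ORF2-/-* libraries. It rose 1.63-fold without overlap (log2 fold change 0.71 ± 0.11, edgeR adjusted p = 3.92e-04), and fell under the 1.5-fold threshold without *Aff3ir-ORF2-/-* replicate 2 (log2 fold change 0.57). The mitochondrial *Sod2* (0.54 ± 0.06), the cytosolic *Gpx1* (0.31 ± 0.04) and *Gpx4*, which reduces lipid hydroperoxides in membranes (0.21 ± 0.05), were higher in every *Aff3ir-ORF2-/-* library and under 1.5-fold, with edgeR adjusted p values of 8.29e-05, 1.50e-04 and 0.00478. The cytosolic *Sod1* and catalase *Cat* overlapped, at -0.10 and -0.06.

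NADPH pays for both the glutathione and the thioredoxin cycle, and its suppliers divided by enzyme. *G6pdx* and *Pgd*, the oxidative steps of the pentose phosphate pathway, overlapped between genotypes at log2 fold changes of 0.10 and -0.07. *Tkt* and *Taldo1*, of its non-oxidative arm, fell by 0.24 ± 0.05 and 0.48 ± 0.10 (edgeR adjusted p = 0.00444 and 0.00472). Malic enzyme *Me1* was higher by 0.31 ± 0.05 (edgeR adjusted p = 8.60e-04). Isocitrate dehydrogenase *Idh1* was lower by a small amount (-0.14 ± 0.05, edgeR adjusted p = 0.0447), and that call was lost in 9 of 14 alternatives. None of the 6 passed the 1.5-fold threshold.

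Of the 4 genes of haem breakdown and iron storage, 3 were higher at the adjusted p, 2 of them past both thresholds. Among all tested genes, 29.3% were higher at the adjusted p. *Hmox1* (NCBI Gene 15368), which opens the haem ring and frees its iron, had 2690, 2626 and 2734 counts in the WT libraries and 5777, 4975 and 6563 in *Aff3ir-ORF2-/-* libraries. All the latter were far above WT, at 2.04-fold (log2 fold change 1.03 ± 0.10, edgeR adjusted p = 9.17e-05). *Fth1* (NCBI Gene 14319), the ferritin chain that oxidizes iron for storage, had 6012, 6166 and 6034 counts in the WT libraries and 14576, 16855 and 21679 in *Aff3ir-ORF2-/-* libraries. It rose 2.76-fold (log2 fold change 1.47 ± 0.14, edgeR adjusted p = 1.98e-04), and replicate 3 was the highest. The light chain *Ftl1* had 31401, 31717 and 30137 counts in the WT libraries and 44436, 42486 and 48629 in *Aff3ir-ORF2-/-* libraries, a rise of 0.46 ± 0.06 on the log2 scale that stayed under 1.5-fold (edgeR adjusted p = 1.70e-04). Biliverdin reductase B, *Blvrb*, overlapped at 0.04 (edgeR adjusted p = 0.748). Ferritin genes have many near-identical pseudogene copies, so their counts carry that uncertainty. The summed macrophage level was also lowest in *Aff3ir-ORF2-/-* replicate 1 and highest in replicate 3, as were *Fth1*, *Sod2*, *Gstm1* and *Cat*, 4 of the 38 members (10.5%, against 12.4% of all tested genes with that order); its part in these values was not tested. Erythroid markers were near 0 (at most 0.275 CPM summed over the 3 in the table).

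**Figure D3:**
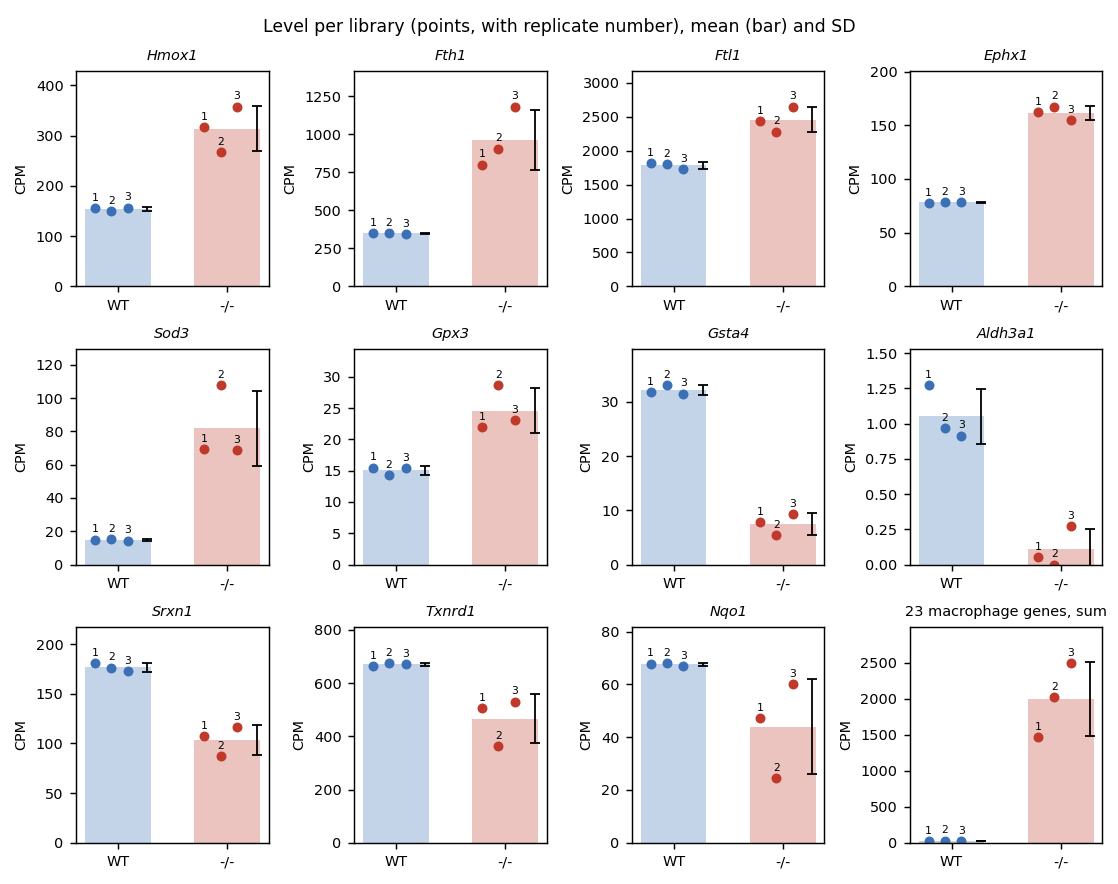
Level (CPM) in each library for 11 genes and for the summed 23 macrophage markers, with points numbered by replicate, bars at the mean and error bars of 1 SD beside them (n = 3 per genotype; y axes start at 0 and differ between panels). *Fth1* and the macrophage sum share the order of the *Aff3ir-ORF2-/-* replicates. *Hmox1*, *Ftl1*, *Gsta4*, *Aldh3a1*, *Srxn1*, *Txnrd1* and *Nqo1* have their lowest *Aff3ir-ORF2-/-* value in replicate 2.

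In summed level, ferritin was higher in *Aff3ir-ORF2-/-* MEFs and the sum of the other members overlapped between genotypes. *Fth1* and *Ftl1* summed to 2170, 2155 and 2070 CPM in WT and to 3240, 3185 and 3831 CPM in *Aff3ir-ORF2-/-* libraries. The other 36 members summed to 5012, 5052 and 4972 CPM in WT and 5003, 4683 and 5198 CPM in *Aff3ir-ORF2-/-* libraries. Per length of transcript (TPM, counts divided by a reference transcript length and scaled to the same total in every library), *Ftl1* was the most abundant member in both genotypes at 4698 ± 119 and 6569 ± 397 TPM (SD, n = 3). *Fth1* was second in both, at 956 ± 7.10 and 2681 ± 529 TPM. *Hmox1* went from rank 13 of 38 (250.2 ± 6.32 TPM) to rank 5 (518 ± 66.6 TPM), and *Sod3* from rank 35 (10.1 ± 0.275 TPM) to rank 25 (57.0 ± 16.9 TPM). *Gsta4* went from rank 21 (83.9 ± 2.37 TPM) to rank 35 (19.9 ± 4.96 TPM). *Sqstm1*, at rank 3, and *Aldh3a1*, at rank 38, held their places.

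**Figure D4:**
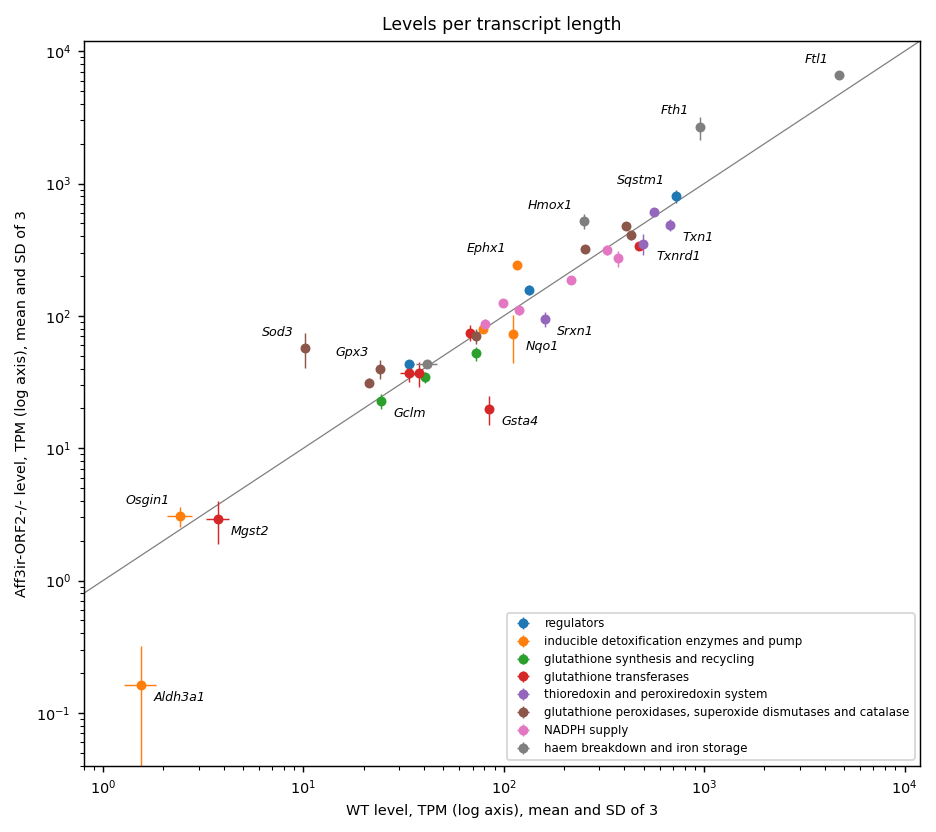
Mean level per transcript length (TPM, log axes) in WT (x axis) and *Aff3ir-ORF2-/-* libraries (y axis) for the 38 genes, with error bars of 1 SD (n = 3 per genotype; the lower bar of *Aldh3a1* is cut at the axis) and the line of equal level. *Sod3*, *Fth1*, *Hmox1* and *Ephx1* lie above the line, *Gsta4* and *Aldh3a1* below it, and the levels span from *Aldh3a1* to *Ftl1*.

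The *Aff3ir-ORF2-/-* libraries differed among themselves in these genes more than WT libraries did. Their log2 range was the wider for 35 of 38 members (92.1%, against 70.0% of all tested genes). In 22 members (57.9%, against 22.0%) replicate 2 was the lowest and replicate 3 the highest. Of the 11 members lower at the adjusted p, 10 had that order (90.9%, against 30.9% of all tested genes lower at it); *Idh1* was the other. *Nqo1*, at a log2 range of 1.29 in *Aff3ir-ORF2-/-* and 0.03 in WT libraries, and *Aldh3a1*, at 1.90 and 0.44, spread the most. This order was noticed after the values had been seen, no test was made of it, and the 3 libraries carry no label that sets replicate 2 apart.

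A further 88 genes of the same pathways were listed, of which 87 were in the table and 78 were tested. Of these, 19 were higher and 3 lower past both thresholds, and 27 and 21 past the adjusted p alone, beside 14.2%, 7.27%, 29.3% and 27.5% of all tested genes. NADPH oxidases made up 4 of the 19 higher genes. Among 10 tested partners, rivals and degraders of NRF2, *Bach2* alone was called. It encodes a repressor that occupies the same elements, and had 249, 233 and 250 counts in the WT libraries and 72, 61 and 76 in *Aff3ir-ORF2-/-* libraries (log2 fold change -1.88 ± 0.12, edgeR adjusted p = 2.24e-06). The related repressor *Bach1*, known for holding *Hmox1* down, was also below WT in every library and under 1.5-fold (-0.54 ± 0.06, edgeR adjusted p = 7.89e-05). *Mafg*, *Cul3* and *Gsk3b* were the others lower at the adjusted p, and *Nfe2l1* and *Btrc* were higher; these 6 names were chosen after their values were seen.

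Among 14 other tested NRF2 targets, 4 were higher and 0 lower past both thresholds, and 6 were higher and 5 lower at the adjusted p alone. Of all tested genes, 14.2% were higher and 7.27% lower past both thresholds, and 29.3% and 27.5% at the adjusted p alone. The iron exporter *Slc40a1* (ferroportin) had 18, 16 and 23 counts in the WT libraries and 43, 99 and 83 in *Aff3ir-ORF2-/-* libraries (log2 fold change 1.89 ± 0.33, edgeR adjusted p = 0.00105). *Ggct*, of glutathione breakdown (1.12 ± 0.16), the pump *Abcc3* (1.12 ± 0.16) and *Ugdh*, which makes UDP-glucuronate (0.63 ± 0.17), were the other 3, with edgeR adjusted p values of 2.94e-04, 3.12e-04 and 0.0224. *Slc7a11*, the cystine importer that feeds glutathione synthesis, overlapped at -0.06.

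Of 15 other tested glutathione transferases, 5 were higher and 1 lower past both thresholds, against 14.2% and 7.27% of all tested genes. *Gsta1* fell with *Gsta4*, with 32, 39 and 33 counts in the WT libraries and 1, 0 and 7 in *Aff3ir-ORF2-/-* libraries (log2 fold change -3.71 ± 0.57, edgeR adjusted p = 4.50e-04). *Gsta3*, of the same class, went up, with 13, 11 and 7 counts in the WT libraries and 36, 71 and 98 in *Aff3ir-ORF2-/-* libraries (2.63 ± 0.43, edgeR adjusted p = 9.32e-04). *Gstt3*, *Gstm6*, *Gstm7* and *Gstt2* were the other higher genes, all but *Gstt3* at 33 counts or fewer in every library. *Gstm6* (5, 7 and 7 WT counts) and *Gstm7* (2, 4 and 7) passed the filter on low counts only through *Aff3ir-ORF2-/-* libraries. Their direction was therefore largely fixed by the filter. *Gsta3*, under 10 counts in WT replicate 3, would not have passed without *Aff3ir-ORF2-/-* counts either. Reads shared among these paralogs could be assigned either way.

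Of 21 further peroxiredoxin, thioredoxin, glutaredoxin and repair genes, 5 were higher and 0 lower past both thresholds, and 7 were higher and 3 lower at the adjusted p alone. The shares of all tested genes were 14.2% and 7.27% past both thresholds, and 29.3% and 27.5% at the adjusted p alone. *Txnip*, which binds and inhibits thioredoxin, rose 3.09-fold, from 651, 672 and 654 counts to 2013, 2045 and 2389 (log2 fold change 1.63 ± 0.07, edgeR adjusted p = 5.50e-07). It stood opposite to *Txn1* and *Txnrd1*, which were lower. The peroxiredoxin *Prdx5* (0.64 ± 0.05), the methionine sulfoxide reductase *Msrb1* (0.69 ± 0.08), the glutaredoxin *Glrx* (1.17 ± 0.15) and the sestrin *Sesn3* were the others. Of 12 other NADPH suppliers, *H6pd* of the endoplasmic reticulum was higher (0.59 ± 0.05, edgeR adjusted p = 1.18e-05) and the mitochondrial folate enzyme *Mthfd2* lower (-0.66 ± 0.06, edgeR adjusted p = 2.50e-05), and 2 were higher and 5 lower at the adjusted p alone.

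NADPH oxidases, which make superoxide, were the list with the largest changes. *Ncf1*, a cytosolic subunit of the phagocyte oxidase, had 5, 2 and 8 counts in the WT libraries and 327, 493 and 575 in *Aff3ir-ORF2-/-* libraries. *Cybb*, its catalytic subunit, had 5, 6 and 9 counts in the WT libraries and 271, 408 and 495 in *Aff3ir-ORF2-/-* libraries. Both passed both thresholds, at log2 fold changes of 6.43 ± 0.40 and 5.77 ± 0.36 and edgeR adjusted p values of 1.99e-05 and 1.47e-05. *Ncf4*, another cytosolic subunit, was also called (4.52 ± 0.36, edgeR adjusted p = 9.30e-06). *Ncf1*, *Cybb* and *Ncf4* passed the filter on low counts only through *Aff3ir-ORF2-/-* libraries, so their direction was largely fixed by the filter. *Cyba*, shared with other oxidases, was higher by 0.54 ± 0.06, and *Nox4*, the oxidase subunit that fibroblasts use, overlapped at -0.19 (edgeR adjusted p = 0.174). The summed macrophage markers, 25.3 to 28.7 CPM in WT against 1464 to 2494 CPM, moved with the phagocyte subunits, and their part in these values was not tested.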

How the data were processed

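The 6 libraries of MEF RNA were 3 WT and 3 *Aff3ir-ORF2-/-*. The authors had paired-end DNBSEQ reads filtered with SOAPnuke and deposited estimated counts for each gene, without normalization (10.6% to 11.3% of values were not whole). The submitters' processing notes name the build mm8. The aligner, the counting tool and the use of strand are not given in the sources used here.

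Counts were rounded and genes with low counts removed by edgeR's filterByExpr (edgeR 4.0.16, at least 10 counts in enough libraries and 15 in all). After TMM scaling the quasi-likelihood test of edgeR was fitted with a robust prior and no covariates in R 4.3.3. A gene was called at an adjusted p (Benjamini-Hochberg, over all 13075 tested genes) under 0.05 with a change of at least 1.5-fold. *Aldh3a1*, and *Gsta1* of the other lists, passed the filter only through their WT counts. *Ncf1*, *Cybb*, *Ncf4*, *Gsta3*, *Gstm6*, *Gstm7* and several macrophage markers would not have passed it without their *Aff3ir-ORF2-/-* counts. The functions were tested on simulated data. The 38 members, the roles, the 88 other pathway genes and the marker lists were chosen with earlier results of these data known. Every member is named, with values per library for called members, *Nfe2l2*, *Keap1*, *Nqo1*, *Hmox1*, *Gclc*, *Gclm*, *Txnrd1* and *Srxn1*, and up to 4 called genes by adjusted p from each other list. Further names were chosen after their values were seen. Not every gene this rule selects is reported here. TPM used the median length of a gene's protein-coding GENCODE M21 transcripts that have a RefSeq match (98.3% of tested genes). Promoter sequences came from RefSeq on GRCm38.p6. Figures were drawn with Python 3.11.15 and matplotlib 3.10.9.

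Alternatives were DESeq2's size factors, total counts, no filter, at least 10 counts in every library, a 2-fold change, the Wald test of DESeq2 1.42.0, voom of limma 3.58.1 with weights by genotype, a block for the replicate number, and leaving out each library. A fit without the robust prior was added after seeing the data. Outlier tests were not made, since groups of 3 are too small.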

Additional observations from a re-analysis of the deposited data

How the results depend on the processing

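Over 14 alternative fits at the 1.5-fold threshold, *Ephx1*, *Sod3*, *Hmox1*, *Fth1*, *Gsta4* and *Srxn1* passed both thresholds in all 14, *Aldh3a1* in the 13 that gave it a value (the filter of 10 counts in every library removed it), and *Gpx3* in 13. Leaving out each library in turn gave 4 to 6 members called higher and 3 to 6 lower (6 without *Aff3ir-ORF2-/-* replicate 3, where *Nqo1*, *Gsr* and *Txnrd1* were added), 15 to 19 other pathway genes called higher and 3 to 7 lower (7 without *Aff3ir-ORF2-/-* replicate 2), and a median log2 fold change of the members of -0.0189 to 0.0386. The cause was not tested. Log2 fold changes near 0 that did not pass the test with all libraries changed sign when a library was left out, with ranges of -0.0774 to 0.0367 for *Abcc1*, -0.0228 to 0.134 for *Blvrb*, -0.173 to 0.0086 for *Cat*, -0.0249 to 0.194 for *Gstm1* and -0.216 to 0.0666 for *Gstm2*. *Abcc1* was also at 0.0091 with total counts. *Sqstm1*, *Gclm*, *Cat* and *Pgd* passed the adjusted p without *Aff3ir-ORF2-/-* replicate 3, *Prdx1* and *G6pdx* without replicate 2 and *Mgst1* without replicate 1, all under 1.5-fold. *Nqo1* passed both thresholds with limma voom (-0.72, 0.00957). With the replicate number as a block, 5 members were higher and 3 lower, and 18 and 4 other pathway genes. Libraries with the same number deviated together weakly (correlations of 0.0145 to 0.0424), although each correlated best with its own number, so the numbers were not taken as pairs. With a 2-fold change 4 members were higher and 2 lower, *Gpx3* and *Srxn1* being lost. *Aldh3a1*, *Mgst2* and *Osgin1* were under 3 CPM in every library, so their values rest on few counts.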
